A study of Mus musculus with 29 samples.

Results

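The genes described here are 32 enzymes and regulators that make fatty acids, lengthen and desaturate them, and couple them to coenzyme A. They were taken by gene symbol from 35199 genes in each table of normalized counts, and all 32 symbols are present. RNA-seq was performed on urothelium and bladder tumors of K5VP16;Pparg mice, in which tamoxifen switches on a constitutively active VP16;Pparg fusion. In these mice Krt5CreERT2, which is active in basal cells of the urothelium, removes a stop cassette in front of the fusion, which sits in the Rosa26 locus under a CAG promoter; the fusion is an artificial activator driven by a foreign promoter.

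At day 4 after induction, 4 control libraries (labelled wild type) and 5 mutant libraries (labelled K5VP16;Pparg+/-) were made from adult mice given no carcinogen. The study gave them tamoxifen by injection into the peritoneum. The study's methods give these animals as K5;mTmG and K5VP16;Pparg;mTmG, so that controls carry the Cre driver and the reporter as well, and state that Gfp-positive cells were sorted. The tumor libraries were laser-captured from mice that drank 0.05% BBN (N-butyl-N-(4-hydroxybutyl)nitrosamine, a bladder carcinogen) for 5 months, at month 4 after tamoxifen. In these mice the study gave tamoxifen into the bladder. The tumor libraries comprise 3 basal tumors of mice labelled wild type and, from K5VP16;Pparg+/- mice, 3 luminal tumors, 3 Luminal Tumor Top samples (the luminal domain of mixed lesions) and 3 Luminal Tumor Bottom samples (the basal-like domain). The study names its control tumors VP16;Pparg fl/fl in some passages and K5;mTmG in others. The label wild type thus need not mean mice without any transgene. The labels give no strain. Libraries are lettered within a group, and a letter names the same library throughout.

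Fatty acids are built in the cytosol from acetyl-CoA, which Acly makes from citrate and Acss2 from acetate. Acetyl-CoA carboxylase turns it into malonyl-CoA, and fatty acid synthase extends this to palmitate with NADPH, part of which comes from malic enzyme. Palmitate is then desaturated, or lengthened in the endoplasmic reticulum by a cycle of condensation (Elovl), reduction (Hsd17b12), dehydration (Hacd) and reduction (Tecr), and acyl-CoA synthetases activate fatty acids for use in membranes, storage or oxidation. The urothelium lines the bladder, and its superficial cells carry plaques of uroplakin proteins on their apical surface.

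Summed normalized counts were 36520193 to 41435665 per library at day 4 and 41697178 to 53904714 in the tumor tables. The values carry factors that differ from gene to gene, so the reads behind them are unknown. Log2 values correlated at 0.943 to 0.972 between libraries of a group at day 4, and at 0.747 to 0.854 within tumor groups. Nothing in the labels says that the libraries of a group come from separate animals, and p-values then measure the spread between these samples only. Fabp4, a direct target of Pparg, was at 207 to 467 in controls and 4969 to 30598 in mutants at day 4, and Pparg itself was at 9381 to 9999 and 6111 to 9032. Whether reads of the fusion count toward Pparg is not stated in the sources used here. Of 5 genes listed to check Pparg activity, 3 were called higher at day 4 and 2 had differences below 0. In 1 of the 5 every mutant was below every control. Uroplakins and Krt5 were detected in every sorted library, and Upk2 and Upk3b were higher in every luminal tumor and Top library than in every basal tumor. A lower level in these bulk samples cannot tell fewer cells of a type from less RNA per cell.

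At day 4 the elongase Elovl1, the elongation reductase Hsd17b12 and the acyl-CoA synthetase Acsl4 rose in K5VP16;Pparg cells, by 1.61-fold, 1.92-fold and 1.78-fold in mean normalized count. No other gene of the 29 tested passed the threshold (limma on log2(normalized count + 1), Benjamini-Hochberg adjusted p under 0.05). Over all 16413 genes tested, 1.77% were called higher and 1.08% lower. Of the 29 genes, 3 were called higher and 0 lower, and 11 had an unadjusted p under 0.05 against 20.8% of all genes. Differences were above 0 for 21 genes and below 0 for 8, with a median of 0.30 on the log2 scale, beside a median of 0.0045 over all genes tested.

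Elovl1 condenses malonyl-CoA with saturated and monounsaturated very long-chain acyl-CoA. It stood at 5133, 4022, 3678 and 3584 normalized counts in control libraries A to D and at 8648, 6437, 5934, 5429 and 6526 in mutant libraries A to E. The groups did not overlap, with control A the nearest to the mutants. The difference was 0.68 ± 0.15 on the log2 scale (SE) with an adjusted p of 0.0448 (limma). In GENCODE, 53 of the 2726 exonic bases of Elovl1 (chromosome 4, 118428093 to 118432953, plus strand, GRCm38) overlap exons of Cdc20 on the opposite strand. The library kit does not mark strand, and Cdc20, a mitotic gene, was at 80.3 to 585 in controls and 510 to 2432 in mutants (adjusted p = 0.0673 with limma). Against basal tumors, Cdc20 had differences of -2.25 in luminal tumors and -2.28 in Top samples (adjusted p = 0.276 and 0.0499, limma). The part of Cdc20 in the values of Elovl1 was not tested.

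Hsd17b12 reduces the 3-ketoacyl-CoA that every Elovl enzyme produces. It stood at 4964, 4037, 3291 and 3426 in the controls and at 7681, 7157, 6627, 6397 and 9778 in the mutants, again with no overlap and with mutant E highest. The log2 difference was 0.94 ± 0.16 (SE) with an adjusted p of 0.0173 (limma). The gene lies on chromosome 2, 94032689 to 94157964, minus strand.

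Acsl4, a synthetase that prefers arachidonic and other polyunsaturated fatty acids, stood at 1534, 1915, 1811 and 1973 in the controls and at 3494, 2468, 3531, 3740 and 2857 in the mutants. All mutants were above all controls, mutant B the nearest. The log2 difference was 0.82 ± 0.14 (SE) with an adjusted p of 0.0189 (limma). The gene lies on chromosome X, 142317993 to 142390535, minus strand.

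These calls rest on few libraries. Without control B or without control C, 0 of the 3 stayed under the threshold, and without control D only Acsl4 did. The call of Elovl1 was also lost without mutant A, B, C or E, one at a time, without the filter and without the trend, and it held in 9 of 19 alternative settings. Acsl4 lost its call in the smaller deposited table of 3 and 3 libraries (adjusted p = 0.114, limma). The adjusted p of Elovl1 then ranged from 0.0343 to 0.137, that of Hsd17b12 from 0.0130 to 0.0623 and that of Acsl4 from 0.0074 to 0.0623 over the 9 fits without a library. Y-linked transcripts summed to 9030 to 9177 in controls B to D, to 404 in control A and to 338 to 395 in the mutants, so sex and genotype cannot be told apart in most of the comparison. The table of 3 and 3 libraries and the fit without control A hold only controls B to D. Sex and genotype cannot be told apart there at all. With the Y-linked level as a term, which leaves control A as the only control of its kind, 0 members were called, and the differences were 0.34 for Elovl1, 0.58 for Hsd17b12 and 1.05 for Acsl4. Control A alone gives a value among libraries low in Y-linked transcripts, and it was below all 5 mutants in each of the 3 genes, a comparison with 1 control library and no test.

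Fibroblast markers summed to 11651 to 84707 in the controls and 30652 to 217371 in the mutants, with Lum called higher (adjusted p = 0.0303, limma), and 6 cell-cycle genes summed to 1587 to 5670 and 2873 to 20583. All 6 cell-cycle genes had differences above 0, with a median of 1.80 on the log2 scale and 0 called. Basal urothelial markers summed to 147066 to 188323 in the controls and 120224 to 143942 in the mutants, with no overlap. By gene, 3 of these 6 differences were above 0 and 3 below (median 0.11, 1 called higher and 1 lower). Superficial markers summed to 212026 to 407759 and 264528 to 521721, with all 8 differences above 0 (median 0.51, 1 called). The adipocyte gene Adipoq was at 0 in every control and at most at 2.3 in a mutant, and the 7 adipocyte markers together summed to 552 to 963 in controls and 417 to 1219 in mutants. Smooth muscle markers summed to 174 to 1042 in controls and 410 to 2719 in mutants, and leukocyte markers to 521 to 627 and 586 to 1258. Of the 8 leukocyte markers, 3 had differences above 0 and 5 below, with a median of -0.12. All 6 fibroblast and all 6 smooth muscle markers had differences above 0, with medians of 2.02 and 1.75 on the log2 scale, and 1 and 3 of them were above every control in every mutant. Their part in the differences was not tested.

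**Figure D1:**
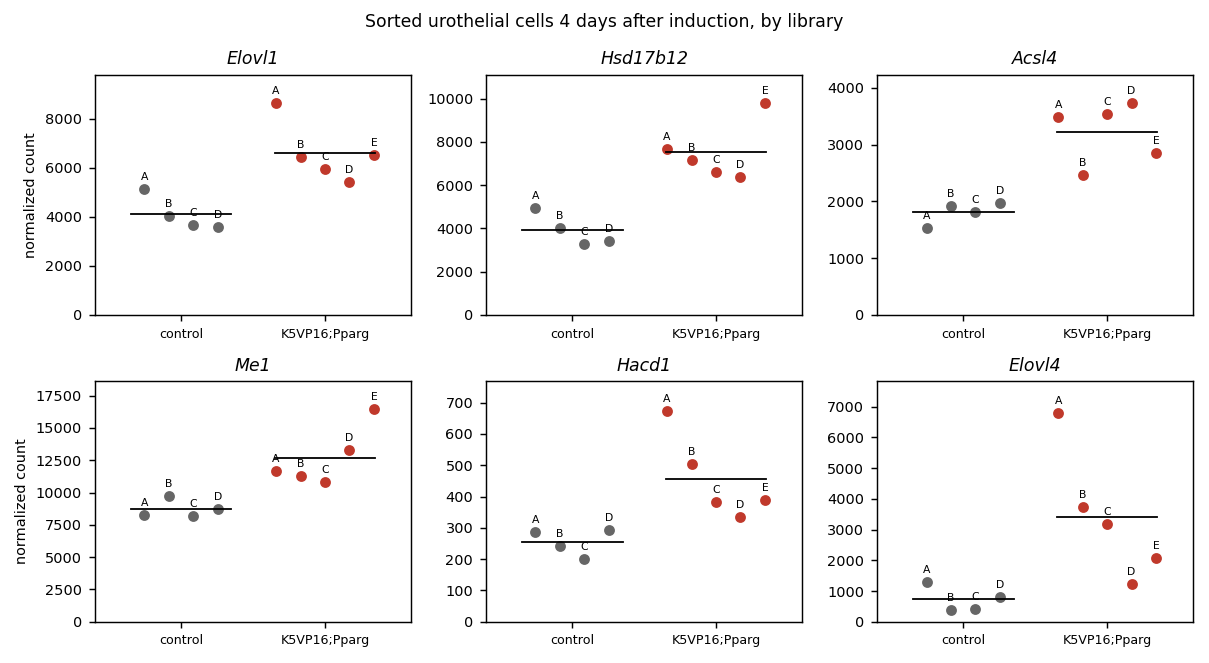
Normalized counts of 6 genes in the 4 control and 5 K5VP16;Pparg libraries at day 4, 1 point a library with its letter, and the mean of each group as a line. In the first 5 panels every mutant point is above every control point, while in that of Elovl4 the lowest mutant, at 1227, is below the highest control, at 1293.

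Because these 3 genes were each called higher at day 4, the bases that precede their start sites are printed from RefSeq (GRCm38.p6), 5′ to 3′ on the strand of the gene and ending before the first annotated exon base. Of the 32 genes, 28 have an entry, with 35 start sites in all. Capitals mark, on either strand, GGGCGG (GC box), ATTGG (the CCAAT box read on its other strand), AGGTCA (the core motif of nuclear receptor sites), CACGTG (E-box) and TCACNCCAC (sterol regulatory element).
Elovl1, first start, chr4:118427843-118428092, plus strand: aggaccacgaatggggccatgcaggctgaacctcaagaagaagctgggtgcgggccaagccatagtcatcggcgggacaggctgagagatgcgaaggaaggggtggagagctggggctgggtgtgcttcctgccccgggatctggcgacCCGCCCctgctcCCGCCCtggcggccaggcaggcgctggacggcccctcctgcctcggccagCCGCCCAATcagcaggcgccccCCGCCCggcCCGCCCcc
Elovl1, second start, chr4:118429451-118429700, plus strand: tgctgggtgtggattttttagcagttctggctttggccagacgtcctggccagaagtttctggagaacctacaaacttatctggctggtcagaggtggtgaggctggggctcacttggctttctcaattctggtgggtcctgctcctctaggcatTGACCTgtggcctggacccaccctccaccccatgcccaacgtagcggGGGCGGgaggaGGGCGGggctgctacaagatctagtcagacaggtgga
Hsd17b12, chr2:94157965-94158159, minus strand: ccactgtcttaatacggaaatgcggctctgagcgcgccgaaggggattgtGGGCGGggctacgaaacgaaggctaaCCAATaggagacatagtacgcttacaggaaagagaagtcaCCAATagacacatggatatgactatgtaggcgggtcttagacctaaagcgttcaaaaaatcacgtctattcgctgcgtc
Acsl4, chrX:142390536-142390785, minus strand: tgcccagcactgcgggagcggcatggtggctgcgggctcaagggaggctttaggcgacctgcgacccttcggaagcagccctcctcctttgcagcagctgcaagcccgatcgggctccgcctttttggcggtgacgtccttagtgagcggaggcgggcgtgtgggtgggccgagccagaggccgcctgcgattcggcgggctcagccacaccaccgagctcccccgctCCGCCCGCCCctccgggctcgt
In the 250 bases before a start, GGGCGG occurs at least once in 24 of the 35 sites of these genes (68.6%) and in 32.7% of all 32851 promoters, and ATTGG in 17 (48.6%) and in 33.8%. AGGTCA occurs in 6 (17.1%) against 14% of all, CACGTG in 3 (8.57%) against 6.02%, and TCACNCCAC in 2 (5.71%), those of Mlxipl and Acsl1, against 1.05%. The repeat bound by Pparg and its partner Rxr, AGGTCA followed by any base and AGGTCA again, is in 0 of the 35 windows and in 0.0335% of all. Of the sequences shown, the second start of Elovl1 holds an AGGTCA, which overlaps none of its other capitals, and lies within the gene. In the first window of Elovl1 a GC box and a CCAAT box overlap, and in that of Acsl4 its 2 GC boxes overlap. The Hsd17b12 window is 195 bases long because an annotated exon ends it. A match is only a match of letters.

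The remaining genes at day 4 are given by role. Among the genes that supply carbon and NADPH, Me1, the cytosolic malic enzyme, was at 8231, 9696, 8185 and 8746 in controls and at 11639, 11271, 10807, 13272 and 16501 in mutants. These groups did not overlap, but the log2 difference of 0.53 ± 0.13 (SE) had an adjusted p of 0.0600 (limma). Acss2 was at 1404 to 1968 and 1681 to 3295 (difference 0.67, adjusted p = 0.0966, limma), and Acly at 12218 to 20371 and 15244 to 26486 (0.37, adjusted p = 0.30), both with overlap. The adjusted p of Acss2 was 0.0174 without mutant D, the mutant that overlapped the controls. It was 0.0249 in the table of 3 and 3 libraries (limma), which lacks control A, so sex and genotype cannot be told apart there. Neither value is read as support.

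None of the core synthesis genes passed the threshold. Fasn, the synthase itself, was at 8325 to 13158 in controls and 8243 to 16449 in mutants, with a log2 difference of 0.07 (95% interval -0.40 to 0.54). Acaca, which makes malonyl-CoA for synthesis, differed by 0.32 (-0.09 to 0.74), and Acacb, whose malonyl-CoA restrains oxidation at mitochondria, was low at 61.9 to 227. The regulators Thrsp and Mlxipl (the carbohydrate-response factor) were at 10.4 to 45.0 and 13.9 to 71.7 over the 9 libraries.

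Among the desaturases, the 2 of largest difference were also variable. Scd1, which makes oleate, was at 216 to 970 in controls and 295 to 1734 in mutants (1.14, adjusted p = 0.27), and Fads3 at 132 to 403 and 323 to 902 (1.27, adjusted p = 0.11). Scd2, Fads1, Fads2 and Fads6 had differences between -0.13 and 0.06. Scd1 and Scd2 are close paralogs, and how reads common to both were divided is unknown.

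Of the elongases, Elovl4, which makes ultra-long fatty acids, had the largest difference of the 29 genes tested, 2.17 ± 0.50 (SE), just outside the threshold at an adjusted p of 0.0503 (limma). It was at 1293, 398, 407 and 810 in controls and at 6797, 3740, 3174, 1227 and 2078 in mutants, so mutant D was below control A. Elovl4 was called in 8 of 19 alternative settings, among them pseudocount 5 and the fit without mutant D, the mutant that overlapped the controls. Also among them were the fit without control A and the table of 3 and 3 libraries. Their controls are all high in Y-linked transcripts, so sex and genotype cannot be told apart there. Elovl6, which lengthens palmitate to stearate, was at 2235 to 2856 and 2645 to 4167 (0.37, adjusted p = 0.16), Elovl5 at 3002 to 4117 and 2719 to 3307 (-0.18) and Elovl7 at 765 to 866 and 709 to 1050 (0.16). Elovl2 and Elovl3 were below the filter of 10 normalized counts in 4 libraries. Elovl3 was listed at 0 in 5 of the 9 libraries and at 96.2 and 193 in mutants D and E.

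In the elongation cycle, Hacd1, a dehydratase best known from muscle, was at 286, 241, 202 and 292 in controls and at 675, 504, 384, 335 and 388 in mutants. The groups did not overlap and the difference of 0.81 ± 0.23 (SE) had an adjusted p of 0.0852 (limma). The smooth muscle sum was highest in mutant A, at 2719, as was Hacd1, and lowest of the mutants in mutant B, at 410, which had the next highest Hacd1. The part of smooth muscle in these values was not tested. Hacd4, of the same family, had the lowest difference of the 29, -0.30 (adjusted p = 0.18), and Hacd2, Hacd3 and Tecr were at 0.30, 0.22 and 0.01. Among the synthetases Acsl5 was at 4774 to 6709 and 6662 to 13554 (0.71, adjusted p = 0.0803), Acsl1 and Acsl3 had differences of -0.28 and -0.19, and Acsl6 was below the filter, at 0, 0, 0 and 3.1 in controls and 4.6, 9.0, 19.7, 17.2 and 4.1 in mutants. Without the filter its difference was 2.83 with an adjusted p of 0.0492 (limma).

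Counted together, 5 of the 29 tested members were above all controls in every mutant library (Elovl1, Hsd17b12, Acsl4, Me1 and Hacd1), where this held for 4.67% of all genes, and 0 were below, where it held for 4.51%. Over all genes tested, 1.77% were called higher and 1.08% lower. Of 56 genes of neighbouring steps, 48 were tested, 5 rose and 0 fell. They were Acot1 (an acyl-CoA thioesterase, 0.95 ± 0.14, adjusted p = 0.0105), Dgat2 (the last step of triglyceride synthesis, 0.76 ± 0.11, 0.0112), Acsbg1 (a very long-chain acyl-CoA synthetase, 1.99 ± 0.33, 0.0182), Scap (the escort of SREBP, 0.56 ± 0.10, 0.0189) and Slc27a4 (a fatty acid transport protein, 1.11 ± 0.20, 0.0229; log2 differences with SE, limma adjusted p). How these 5 calls move in the alternative settings is not given. Acot1 has near-identical neighbours, so its share of their common reads is uncertain. Srebf1, the gene of SREBP-1, differed by -0.25 (adjusted p = 0.39).

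**Figure D2:**
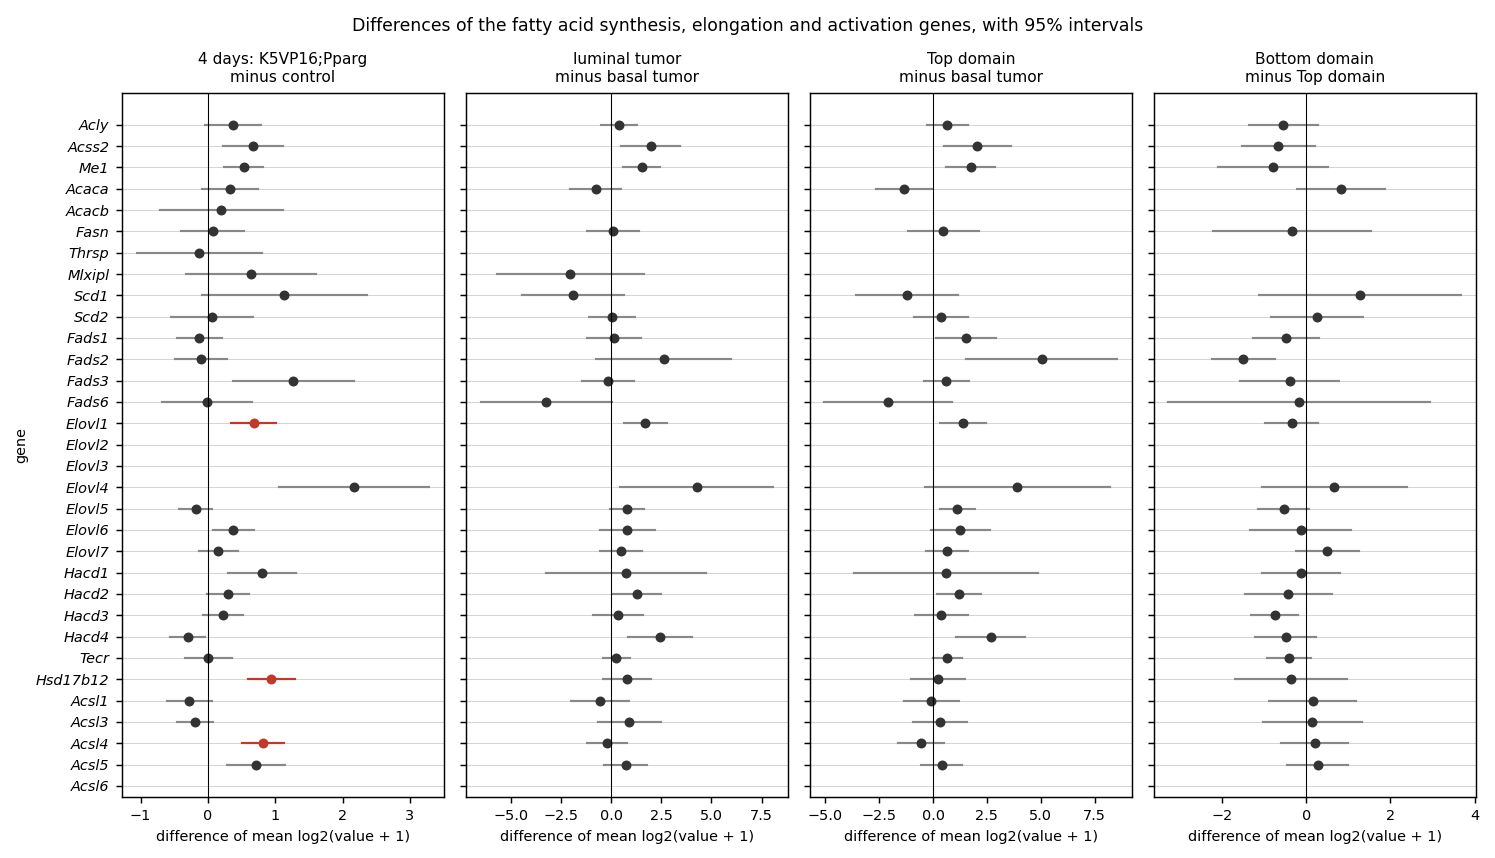
Difference of mean log2(normalized count + 1) for each of the 32 genes in 4 comparisons, with the 95% interval of the limma fit, on axes that differ between panels; genes without a point were below the filter. The red points, Elovl1, Hsd17b12 and Acsl4 at day 4, are the only ones with an adjusted p under 0.05, and the intervals of the tumor panels are several times wider.

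In luminal tumors against basal tumors, 0 of the 27 members tested passed the threshold (limma, 15357 genes tested, of which 1.26% were called higher and 0.938% lower). An unadjusted p under 0.05 was found for 6 members and for 18.4% of all genes. Differences were above 0 for 20 members and below 0 for 7, with a median of 0.48, beside -0.11 over all genes. In 6 members every luminal tumor was above every basal tumor, as in 9.98% of all genes, and in 0 every one was below, as in 11.6%. All 11 tested genes of the elongases and the elongation cycle had differences above 0, with 0 called, and the groups did not overlap in 4 of them. The tables of tumors and of sorted cells were normalized apart, so levels are not compared between them.

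Me1 was at 1802, 3424 and 3369 in basal tumors A to C and at 5285, 11729 and 7993 in luminal tumors A to C, with a log2 difference of 1.52 ± 0.41 (SE, adjusted p = 0.0943, limma). When luminal tumors and Top samples were pooled into 1 group of 5, as the study did, Me1 had a difference of 1.80 and an adjusted p of 0.0350. Acss2 was at 294, 156 and 859 and at 912, 1942 and 1330, a difference of 1.96 ± 0.65 (adjusted p = 0.154). Of its 10163 exonic bases, 395 overlap exons of Gss on the opposite strand, 335 those of Acss2os and 197 those of Ggt7. Gss had differences of 1.71 here, 1.50 in Top domains and 0.53 at day 4 (adjusted p = 0.144, 0.210 and 0.150, limma). Ggt7 had a difference of -1.02 at day 4 (adjusted p = 0.109, limma) and was below the filter here and in Top domains. The part of these genes in the values of Acss2 was not tested. Me1 and Acss2 thus lay apart between the groups, with basal tumor C close under luminal tumor A in Acss2. Acly, the other source of acetyl-CoA, overlapped between groups at 1812 to 3869 and 2820 to 5110.

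Elovl1 was at 2612, 2298 and 7257 in the basal tumors and at 7750, 14712 and 13316 in the luminal tumors (1.71 ± 0.48, adjusted p = 0.108). Elovl5, the elongase of polyunsaturated fatty acids, was at 1104, 1793 and 2153 and at 3318, 2926 and 2276 (0.79 ± 0.38, adjusted p = 0.30). Hacd2, a broadly expressed dehydratase, was at 2788, 5100 and 5113 and at 11414, 17074 and 5322 (1.28 ± 0.53, adjusted p = 0.244). In each the groups did not overlap, and luminal tumor C was the nearest to the basal tumors in Elovl5 and Hacd2. Hsd17b12 was at 5014, 4719 and 5687 and at 6913, 11922 and 8490 (0.79 ± 0.53, adjusted p = 0.468), while the Top library B of the same table was below all of these at 2650.

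Hacd4 and Elovl4 overlapped between the groups because of a single basal tumor. Hacd4 was at 465, 2136 and 287 and at 6560, 2100 and 3199 (2.42, adjusted p = 0.122). Without basal tumor B its difference was 3.27 with an adjusted p of 0.0367, and with the pooled luminal group 2.59 with 0.0489. The gene shares 746 of its 6756 exonic bases with Focad on the opposite strand, which had a difference of -1.78 (adjusted p = 0.233). Elovl4 was at 39.4, 10.0 and 2263 and at 944, 3032 and 2469 (4.26, adjusted p = 0.225), and without basal tumor C its difference was 6.51 with an adjusted p of 0.0457. For Hacd4 and Elovl4 alike, the fit without a basal tumor drops the library that overlapped the luminal tumors, so its adjusted p is not read as support. No other fit without a library called either gene. Basal tumor C also stood apart in Fads2, at 857 against 6.7 and 34.1, and in Fabp4, at 48304 against 1082 and 75.5.

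**Figure D3:**
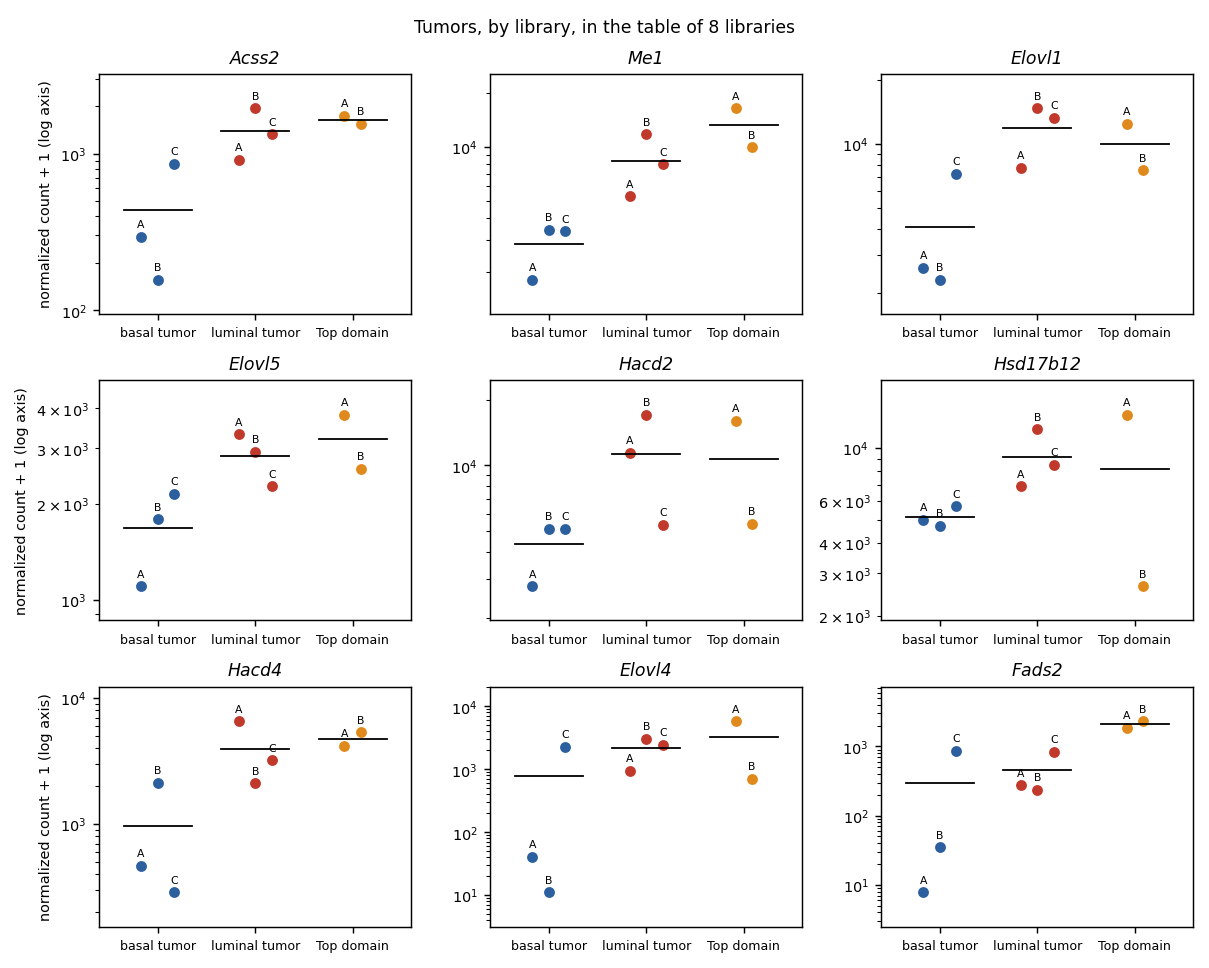
Normalized count + 1 on log axes of 9 genes in the 3 basal tumors, 3 luminal tumors and 2 Top libraries of the table that holds all 8, with library letters and the arithmetic mean of each group as a line. Basal tumor C is the highest basal tumor in Acss2, Elovl1, Elovl5, Hsd17b12, Elovl4 and Fads2, and basal tumor B in Hacd4.

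The core enzymes overlapped between basal and luminal tumors. Fasn was at 854 to 3675 in basal and 1213 to 2479 in luminal tumors (0.09, 95% interval -1.20 to 1.38), Acaca at 817 to 1902 and 525 to 817 (-0.77, -2.04 to 0.49), and Scd1 at 293 to 1212 and 52.2 to 544 (-1.90, -4.42 to 0.63). Fads6 had the lowest difference, -3.24 (adjusted p = 0.276), at 12.7 to 136 and 1.4 to 20.8. Acsl3 was at 1250 to 2843 and 1553 to 9388 (0.91), Acsl5 at 2141 to 4830 and 3127 to 7259 (0.72), and Acsl4 at 1080 to 2962 and 1413 to 1654 (-0.22). The remaining members overlapped, with differences from -2.03 in Mlxipl to 2.62 in Fads2. Acacb, Thrsp, Elovl2, Elovl3 and Acsl6 were below the filter, and Elovl3 was listed at 0 in all 8 libraries.

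Markers of other cells differed between these tumors. Smooth muscle markers summed to 51208, 6010 and 48256 in the basal tumors and 240, 150 and 1254 in the luminal tumors, fibroblast markers to 44454 to 66575 and 212 to 17130, and leukocyte markers to 5811 to 18850 and 508 to 3344. All 5 endothelial markers had differences below 0 (median -3.71, 0 called). All 6 cell-cycle genes were also below 0 (1 called), with sums of 25932 to 36494 and 2813 to 23443. Of urothelial markers, all 8 superficial ones were above 0 (5 called) and all 6 basal ones below 0 (2 called). Hacd1, at 3732, 14.5 and 2462 in basal tumors and 342, 877 and 2203 in luminal tumors, was high in the 2 basal tumors with the most smooth muscle markers. Its log2 difference was above 0, at 0.74, while its arithmetic mean was lower in the luminal tumors. Adipocyte markers summed to 14 to 110 in all 8 libraries, with Lep listed at 0. The part of these cells and of cell-cycle genes in the differences was not tested.

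Against the same basal tumors, the Top domain of mixed lesions was compared in a table of its own, so that the basal values differ slightly. Here too 0 of 26 members tested passed (limma, 14921 genes tested, 1.7% called higher and 0.824% lower), and 10 had an unadjusted p under 0.05, as had 20.6% of all genes. Differences were above 0 for 21 members and below 0 for 5, with a median of 0.63 beside 0.01 over all genes. In 8 members every Top library was above every basal tumor, as in 14% of all genes, and in 1 below, as in 12.8%.

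Fads2, the delta-6 desaturase that opens the path to arachidonic and docosahexaenoic acid, was at 7.1, 35.2 and 891 in the basal tumors and at 1973, 2510 and 1871 in the Top libraries. The difference was 5.04 ± 1.52 (SE) with an adjusted p of 0.125, and 6.94 with 0.0340 without basal tumor C (limma). Fads1, which works with it, was at 425 to 2212 and 2169 to 4361 (1.51, adjusted p = 0.214), with Top A just below basal tumor B. Hacd4 was at 492, 2213 and 299 and at 4488, 5798 and 3338 (2.68 ± 0.69, adjusted p = 0.0900, and 3.53 with 0.0179 without basal tumor B). Fads2 and Hacd4 were thus separate between the groups, with 1 basal tumor that stood apart. The fits without that tumor drop the basal library nearest the Top libraries, so their adjusted p is not read as support. No other fit without a library called Fads2 or Hacd4.

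Me1 was at 1905, 3549 and 3522 and at 17617, 10780 and 4856 (1.76 ± 0.49, adjusted p = 0.106). Acss2 was at 314, 163 and 909 and at 1889, 1704 and 1048 (2.05 ± 0.67, 0.148), and Elovl5 at 1165, 1856 and 2248 and at 4097, 2808 and 4386 (1.12 ± 0.36, 0.137). Top library A was highest in Me1 and Acss2. Elovl1 was at 2793, 2410 and 7673 and at 13489, 8289 and 8341 (1.39 ± 0.46, 0.152), Hacd2 at 2941, 5274 and 5332 and at 17140, 5855 and 10218 (1.21 ± 0.44, 0.176), and Tecr, the last reductase of the cycle, at 6358, 9244 and 10332 and at 16645, 11622 and 12590 (0.67 ± 0.29, 0.241; adjusted p from limma). Acaca was the only member below, at 938, 856 and 2009 in basal tumors and 800, 327 and 367 in Top libraries (-1.35 ± 0.56, 0.224). Hsd17b12 and Acsl4, called at day 4, overlapped here with differences of 0.23 and -0.58.

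Of 47 tested genes of these steps, 3 rose in luminal tumors and 0 fell: Degs2, a sphingolipid desaturase and hydroxylase (7.60 ± 1.08, adjusted p = 0.0199), Mid1ip1, which promotes polymerization of acetyl-CoA carboxylase (2.20 ± 0.42, 0.0364), and the thioesterase Acot8 (1.80 ± 0.34, 0.0364). In the Top domain 5 of 47 rose and 0 fell: Mid1ip1 (2.66 ± 0.40, 0.0258), Degs2 (7.79 ± 1.17, 0.0258), Acsbg1 (2.31 ± 0.41, 0.0367) and the NADPH-producing dehydrogenases Pgd (1.54 ± 0.30, 0.0467) and Idh1 (1.52 ± 0.31, 0.0498; limma). Of all genes tested, 1.26% were called higher and 0.938% lower in luminal tumors, and 1.7% and 0.824% in the Top domain. Both lists of calls use the same basal tumors, and how they move in the alternative settings is not given. All 3 Top libraries had 120686 to 516227 for the 8 superficial markers against 4534 to 20738 in the basal tumors, and 1430 to 1911 against 6298 to 57231 for smooth muscle. Fibroblast markers summed to 5011 to 31289 against 45948 to 70263, and cell-cycle genes to 5844 to 8991 against 27866 to 39917, with 3 of the 6 called lower. Their part in the differences was not tested.

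Luminal tumors and Top domains were set against each other in the fit of 8 libraries. With limma 0 members were called, 0 had an unadjusted p under 0.05, and 0% of all genes were called higher and 0% lower, with 4.71% at an unadjusted p under 0.05. Differences were above 0 for 19 members and below 0 for 8, with a median of 0.30 beside 0.09 over all genes, and of -0.03 without Top library A. In 4 members both Top libraries were above every luminal tumor, as in 10.9% of all genes, and in 0 below, as in 9.25%. Fads2 was at 274, 233 and 839 in luminal tumors A to C and at 1848 and 2320 in Top libraries A and B (2.45, 95% interval -1.30 to 6.20). Fads1 was at 1197, 838 and 1433 and at 2026 and 2787 (1.07, -0.43 to 2.57). Both desaturases of polyunsaturated fatty acids were thus apart, but with intervals that include 0. Fasn was at 1213, 2194 and 2479 and at 5473 and 2500 (0.98, -0.46 to 2.42), and Tecr at 9351, 9716 and 9696 and at 15446 and 10647 (0.42, -0.33 to 1.17), where Top B was close to the luminal tumors. The difference of Fasn was 0.41 without Top library A and 1.54 without Top library B. All 6 fibroblast, 5 endothelial and 8 leukocyte markers had differences above 0, with medians of 3.05, 3.62 and 1.51 on the log2 scale and 0 called, and their part was not tested.

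The 4-day and tumor comparisons share no library. Of 27 members tested at day 4 and in luminal against basal tumors, 20 were above 0 at day 4 and 20 in the tumors, with 15 above 0 in both, 2 below 0 in both, 5 above at day 4 only and 5 above in the tumors only. Because most members were above 0 in each comparison, the number above 0 in both is not read as agreement between them. The sign was the same for 63% of the members and 51.5% of all 14248 genes tested in both. This share is not read as agreement either, because the members were mostly above 0 in each comparison. Of all genes tested, 50.5% were above 0 at day 4 and 46% in luminal tumors. Me1 and Elovl1 were the members with no overlap between groups at day 4 and in both tumor comparisons. Both tumor comparisons use the same basal tumors, and the share of all genes with this pattern was not counted. Hacd4 had differences of -0.30 at day 4 and 2.42 and 2.68 in the tumor comparisons, and Elovl5 of -0.18, 0.79 and 1.12. Neither gene was called in the main fit of any of these comparisons. Whether the differences differ was not tested.

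Within mixed lesions, the basal-like Bottom domain was compared with the luminal Top domain, and no member was called. With limma 0 of 26 members tested were called, as were 0% of the 14874 genes in each direction, and 2 members, Fads2 and Hacd3, had an unadjusted p under 0.05 against 5.09% of all genes. Differences were below 0 for 17 members and above 0 for 9, with a median of -0.34 beside 0.01 over all genes. In 3 members every Bottom library was below every Top library, as in 5.14% of all genes, and in 0 above, as in 5.62%.

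Fads2 was at 1987, 2560 and 1906 in Top libraries A to C and at 893, 859 and 561 in Bottom libraries A to C, a difference of -1.50 (95% interval -2.24 to -0.75, adjusted p = 0.651, limma). The groups lay well apart. Hacd3, another dehydratase of the cycle, was at 2902, 3304 and 3642 and at 1895, 2263 and 1714 (-0.75, -1.31 to -0.19), and Tecr at 17007, 12027 and 13018 and at 11422, 11018 and 9042 (-0.41, -0.92 to 0.10). All 6 genes of the elongation cycle and all 3 of carbon and NADPH supply had differences below 0, from -0.12 in Hacd1 to -0.79 in Me1. The 4 synthetases tested had differences above 0, from 0.15 in Acsl3 to 0.27 in Acsl5.

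Other members varied widely between the libraries of a group. Scd1 was at 1501, 159 and 142 in Top and 1709, 1028 and 277 in Bottom libraries, Elovl4 at 6229, 770 and 835 and at 3060, 2132 and 2461, and Fasn at 6397, 2998 and 1191 and at 3166, 5033 and 708. Top A was the highest Top library in each, and the groups overlapped. It also held 336309 of Fabp4 against 6538 and 15225 in Top B and C, and Bottom A held 201809 against 17115 and 3420. Acsl6 was at 192 in Bottom C and at most at 2.2 in the other 5 libraries. Fibroblast markers summed to 5225 to 32313 in Top and 13859 to 104068 in Bottom libraries, superficial markers to 123119 to 519311 and 34556 to 125792, and cell-cycle genes to 6028 to 9244 and 13489 to 22470. Their part in the differences was not tested. The column codes of Top and Bottom samples are consecutive in pairs, but no label says which samples come from the same lesion. The fit is therefore unpaired.

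**Figure D4:**
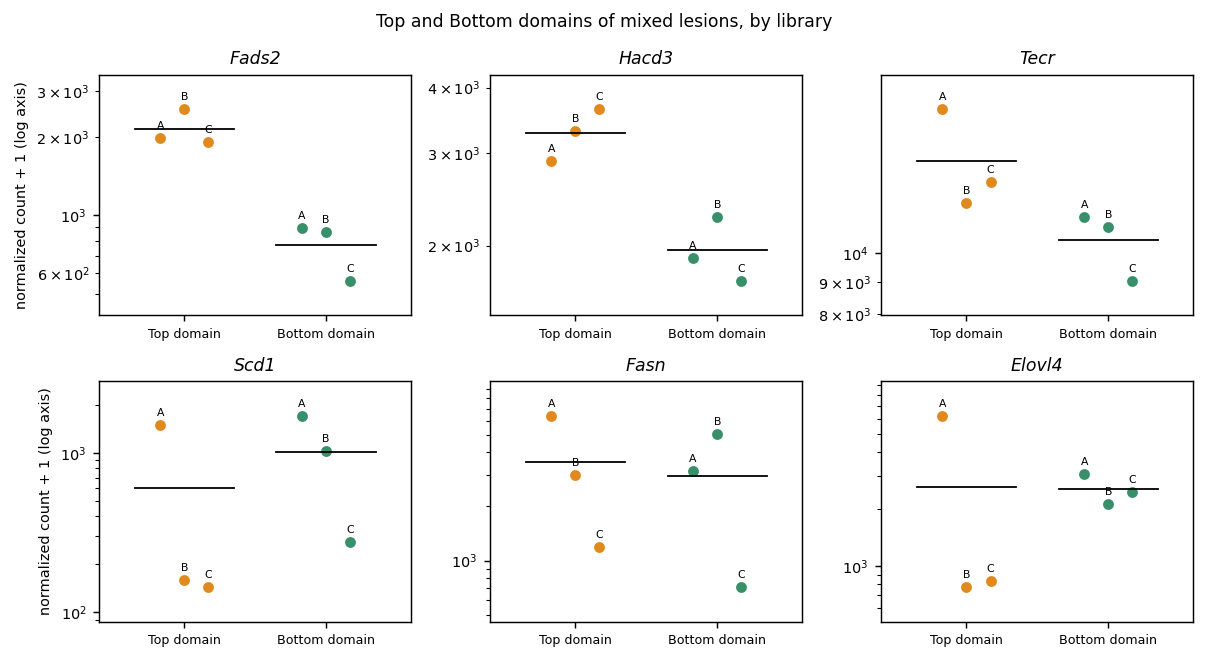
Normalized count + 1 on log axes of 6 genes in the 3 Top and 3 Bottom libraries of mixed lesions, with library letters and the arithmetic mean of each group as a line. In Fads2, Hacd3 and Tecr all Bottom points are below all Top points, and in Scd1, Fasn and Elovl4 they overlap, with Top A far above Top B and C in Scd1 and Elovl4.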

How the data were processed

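The authors quantified reads with kallisto 0.44.0 and normalized gene counts with DESeq2 1.18 (submitters' processing notes; bcl2fastq 2.20 and sleuth are also named), each table on its own. What was deposited is this normalized signal per gene, scaled by factors that vary between genes, so whole reads could not be recovered and no count model was used. The build of the index is not given in the sources used here. Deposited tables of the authors' fold changes and p-values were not used, nor were the 8 columns of the table with and without 1 month of BBN, because no label ties a column to a condition.

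The members, gene lists and tests were chosen with earlier results of these data known. A gene was tested if 4 (day 4) or 3 (tumor) libraries reached a value of 10. The test was limma 3.58.1 under R 4.3.3 (lmFit, eBayes with a trend, two-sided), run on log2(normalized count + 1), which understates changes of low genes, with Benjamini-Hochberg adjustment over all genes tested at 0.05. Luminal tumors were fitted with basal tumors and 2 Top libraries, each with a mean of its own. Values are given by library for members called or tested with groups that did not overlap, and for a few others chosen after their values were seen. Gene positions are from GENCODE vM21 and promoters from RefSeq. The fit was tested on simulated data, of which no outcome is used here. Alternatives were other pseudocounts, filters and scalings, no trend, array weights, other groupings or tables, a Y-linked term, and each library left out. Figures were drawn with Python 3.11.15 and matplotlib 3.10.9.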

Additional observations from a re-analysis of the deposited data

Results flagged for a closer look

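Among 58 groups of member values at day 4, 2 held a library far from the others of its group, where chance alone gives about 1 in 20 groups. Mlxipl was at 71.7 in mutant library C, and the next highest mutant was at 30.7. Scd1 was at 970 in control library D, and the next highest control was at 340.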

How the results depend on the processing

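Over the 19 alternatives at day 4, the count of members called was 3, all higher, as reported, and moved to 6 with array weights (Acsl5, Elovl4 and Me1 added) and to 0 with the Y-linked term. With a library left out it ranged from 0 to 5. It was 2 to 4 in all other settings, not always with the same genes. Against basal tumors, the count of 0 became 2 for luminal tumors with the pooled group of 5 and ranged from 0 to 1 with a library left out, as it did for the Top domain. Between Bottom and Top domains, and between Top domains and luminal tumors, it was 0 in all. No difference of a called or non-overlapping member changed sign. Over all genes, calls ranged from 26 to 1054 at day 4 (467 as reported; quantile scaling gave 270 higher and 287 lower, against 290 and 177), from 3 to 813 for luminal tumors (338) and from 0 to 467 for the Top domain (377). They were 0 between the domains except 20 without a trend, and 0 between Top domains and luminal tumors except 1 without luminal tumor C. The cause was not tested. The median member difference of Top against luminal tumors went from 0.30 to -0.03 without Top library A. No paired analysis was possible because the columns carry no replicate numbers. Pairs of Top and Bottom samples could only be assumed from their consecutive column codes, and a fit with such assumed pairs was not run. Depth in reads is unknown.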
